A study of Mus musculus with 8 samples.

Results

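The cytochrome P450 (CYP) genes of sorted mouse intestinal epithelial cells (IECs) are described here, gene by gene and subfamily by subfamily, in mice lacking CD1d (CD1d-KO) and in wild-type (WT) mice. Members were all genes of the count table whose symbol starts with Cyp followed directly by a digit, which gave 105 of 25239 genes, in 17 families and 40 subfamilies. Among them were 4 pseudogenes and 1 antisense transcript (Cyp4x1os). The rule used names only, not measured values.

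Bulk RNA-seq was performed on EpCAM+ cells negative for CD45, CD31 and Ter119, sorted from crypt-enriched preparations of the proximal small intestine, from 4 mice labelled CD1d1/2 KO and 4 labelled WT. CD1d is the lipid-presenting molecule that natural killer T (NKT) cells recognise, and CD1d-KO mice lack NKT cells, so the comparison asks how the epithelial transcriptome differs when CD1d and NKT cells are absent. The deletion is germline and not restricted to the epithelium. The paper states that its mice were not littermates, and that this may affect their gut microbiota and add to the epithelial phenotype. It also reports altered natural killer cells in the lamina propria and altered T cells among intraepithelial lymphocytes of CD1d-KO mice. The part of these differences in the results below was not tested. No treatment is named in the labels, and the methods describe the mice as males and females of 7 to 10 weeks, matched for age and sex between genotypes, without sex per sample.

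Cytochrome P450 enzymes are haem proteins that insert oxygen into lipophilic molecules, most of them on the endoplasmic reticulum with electrons from the reductase encoded by Por. Members of the CYP1, CYP2 and CYP3 families oxidise drugs, plant compounds and pollutants, those of CYP4 and of several CYP2 subfamilies act on fatty acids and eicosanoids, and the others make or break down sterols, bile acids, steroid hormones, retinoic acid and vitamin D. In the small intestine, villus enterocytes hold most of this activity and are a first barrier to swallowed compounds. Xenobiotic-responsive members are controlled by the nuclear receptors PXR (Nr1i2) and CAR (Nr1i3) and by the aryl hydrocarbon receptor (Ahr).

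Library depth lay between 29743061 and 31629435 counts for CD1d-KO and between 23610266 and 29763051 for WT. All pairs of replicates differed by more than counting noise (chi-square per degree of freedom between 9.74 and 37.19). Raw counts of the targeted gene Cd1d1 were 8, 3, 5 and 0 for CD1d-KO 1 to 4, and 81, 70, 94 and 50 for WT 1 to 4, which matches the labels. CD1d-KO samples 1 and 2 stood apart from all others in carrying Y-linked transcripts (6235 and 7293 counts over Ddx3y, Eif2s3y, Kdm5d and Uty, against 0 or 1 elsewhere) and little Xist (67.9 and 50.5 normalised counts, against 21985 or more elsewhere). No WT sample had this pattern, so these 8 libraries were not balanced for sex, unlike the matching that the methods state. Values without these 2 samples are given for each called member. No comparison of genotypes is possible within the samples with Y-linked counts.

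Other cell types also moved with genotype. The summed normalised counts of 15 stomach and Brunner's gland markers lay between 834 and 1746 in CD1d-KO and between 2703 and 17778 in WT, with 6 of 13 tested genes lower (Cldn18, Anxa10, Ctse, Vsig1, Muc5ac and Muc6) and Atp4a higher. Of 13 tested leukocyte markers 5 were lower in CD1d-KO (Cd3g, Cd8a, Jchain, Itgam and Coro1a). The summed list ranged from 1282 to 10320 in CD1d-KO against 14540 to 20733 in WT, but 89.7% of it was Cd74, an MHC class II chaperone that epithelium also expresses and that was not called (DESeq2 adjusted p = 0.379). Without Cd74 the sums were 813 to 983 against 1043 to 2107. Paneth cell markers were higher for 3 of 8 genes (median log2 fold change 0.62). None of 18 villus enterocyte markers was called by DESeq2, although 3 were higher and 1 lower at an unadjusted p under 0.05. Their log2 fold change was positive for 15 of the 18, and the median was 0.20. Tuft cell markers had 4 of 8 genes lower at an unadjusted p under 0.05 and a median of -0.30, without a call. Hepatocyte markers summed to 411 to 667 counts in all samples, with Ttr and Trf called higher and Tat lower. Among 15 clock output genes Tef alone was called (0.52), and 4 were higher at an unadjusted p under 0.05. No gene of the crypt stem, cycling, goblet, tuft, enteroendocrine, exocrine pancreas, stromal or epithelial lists was called by DESeq2 (at an unadjusted p under 0.05 the crypt stem list had 1 gene higher and 1 lower, and the others but tuft had 0), and 4 of the 8 pancreas markers were at 0 in every sample. The genes that define the sort were high in every sample (314514 to 336535 counts in CD1d-KO and 304450 to 338996 in WT for 8 epithelial markers). A stomach marker score, the mean log2(normalised count + 1) of the 15 genes centred per gene, served as a covariate in an alternative fit. In a bulk sample fewer cells of a type and less RNA per cell cannot be told apart, and the part of these markers in the results below was not tested except where a fit is named.

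Of the 105 members, 81 had a count in at least 1 sample and 43 were detected, meaning at least 10 counts in at least 4 samples. This was 41.0% of the members, against 54.6% of all genes in the table. The 43 detected members came from 10 families and 23 subfamilies. The drug-metabolizing families contributed Cyp1a1, Cyp2b10, 7 Cyp2c genes (Cyp2c23, Cyp2c29, Cyp2c55, Cyp2c65, Cyp2c66, Cyp2c68 and Cyp2c70), Cyp2d22, Cyp2d26, Cyp2e1, Cyp2s1, Cyp2t4, Cyp2w1 and the 4 genes Cyp3a11, Cyp3a13, Cyp3a25 and Cyp3a59. Fatty acid oxidising members detected were Cyp2j5, Cyp2j6, Cyp2j9, Cyp2u1, Cyp4a10, Cyp4a32, Cyp4b1, Cyp4v3 and 8 of 10 Cyp4f genes, 1 of them the pseudogene Cyp4f41-ps. From sterol, steroid and vitamin pathways came Cyp11a1, Cyp17a1, Cyp27a1, Cyp27b1, Cyp2r1, Cyp39a1 and Cyp51, and Cyp20a1, whose substrate is unknown, completed the set.

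A total of 24 members were at 0 in every sample, which allows up to 3 counts per library. They included Cyp7a1 and Cyp8b1, which set the rate of bile acid synthesis and the cholic acid branch in liver, the adrenal enzymes Cyp11b1 and Cyp11b2, the aromatase Cyp19a1, both Cyp3a41 copies and the PPAR-alpha target Cyp4a14. Cyp3a41a and Cyp3a41b share 2064 exon bases on the same strand, which is all of Cyp3a41b. Reads there may not be assigned to either gene, so a count of 0 does not show that these copies were silent. The other 38 members not detected had at most 12 counts in any sample. Among these, Cyp1b1, a second target of the aryl hydrocarbon receptor, had 2 counts in CD1d-KO 4 and 0 in the others, and Cyp1a2 had 1 count in WT 2. The retinoic acid hydroxylase Cyp26a1 had 1 count in each of CD1d-KO 1 and 2, and Cyp7b1, which hydroxylates oxysterols, had 2 counts in CD1d-KO 1.

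Levels were compared between genes as TPM, which divides counts by exon length and scales each library to the same total. The most abundant member was Cyp4f14, which inactivates leukotriene B4 and related lipids, at 337 ± 49.1 TPM in CD1d-KO and 306 ± 24.7 TPM in WT (SD, n = 4). Cyp4f40, Cyp4v3, Cyp2c65 and Cyp3a13 followed at means of 135, 130, 130 and 122 TPM over all samples, and the ranges of these 4 genes overlapped. The 8 highest members held 64.6% of the family's TPM. In all, 23 detected members had a mean of at least 10 TPM while 5 were under 1 TPM. Summed over all members, CD1d-KO samples 1 to 4 reached 1657, 2048, 2061 and 1964 TPM, and WT samples 1 to 4 reached 1444, 1754, 1657 and 1428. CD1d-KO 1 therefore lay inside the WT range and the other 3 CD1d-KO samples above it.

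**Figure D1:**
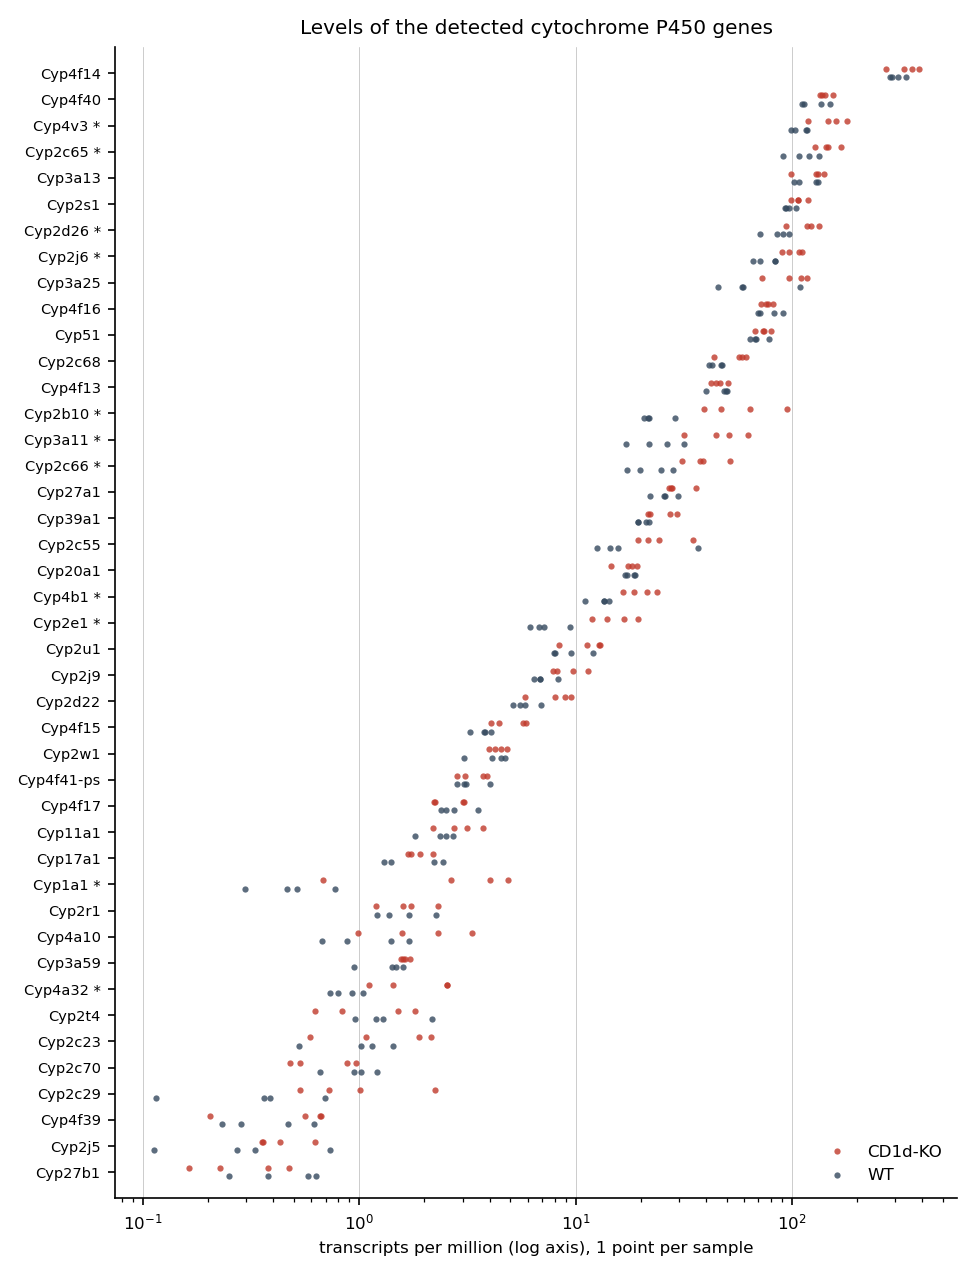
TPM on a log axis for the 43 detected members, ordered by mean level, with 1 point per sample (red CD1d-KO, blue-grey WT) and a star for members with a DESeq2 adjusted p under 0.05. Cyp4f14 stands above all others at 272 to 387 TPM, and starred genes occur from Cyp4v3 near the top to Cyp4a32 near the bottom.

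DESeq2 tested 55 members, the 43 detected and 12 with lower counts. In CD1d-KO IECs 11 of them rose and none fell at an adjusted p under 0.05. Those 11 are 20.0% of the members tested, where 4.03% of all 15446 genes tested were called, 1.65% higher and 2.38% lower. At an unadjusted p under 0.05 the members numbered 20, all higher, and edgeR also called none lower. Log2 fold changes were positive for 47 of the 55 members and for 50.3% of all genes tested. The members' median was 0.38, against 0.00 over all genes, and it was 0.29 among members that were not called. Of the 18 villus enterocyte markers 15 were positive too, with a median of 0.20, and their part in this shift was not tested. Normalised counts of the genotypes did not overlap in 9 tested members, all higher in CD1d-KO, where the same happened upwards in 4.09% and downwards in 5.52% of all genes tested.

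**Figure D2:**
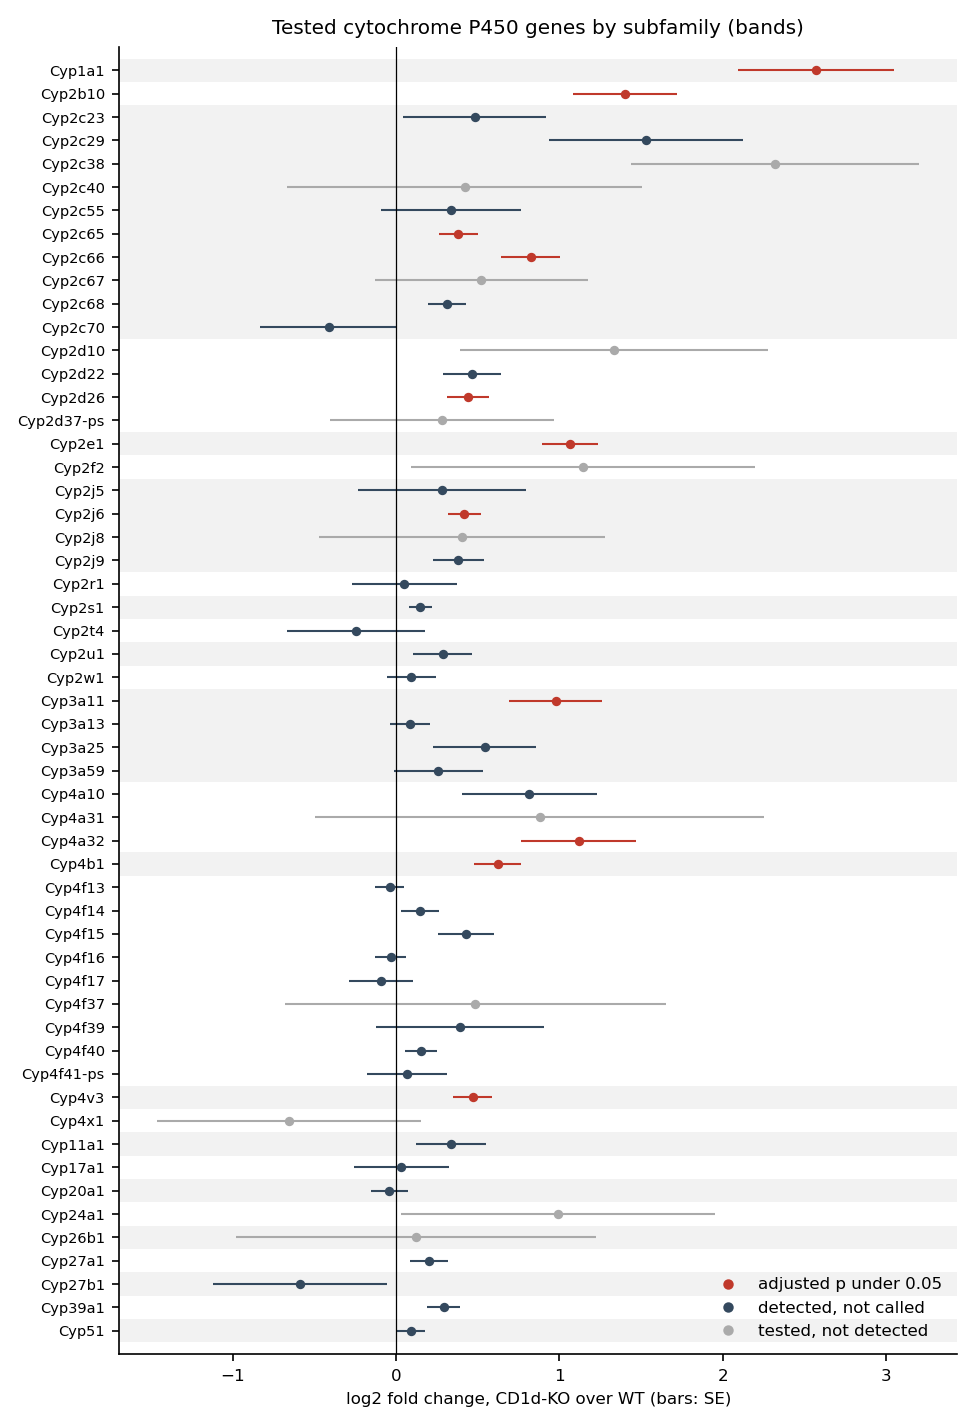
Log2 fold change of CD1d-KO over WT with its SE for the 55 tested members, in bands by subfamily (red: DESeq2 adjusted p under 0.05, blue-grey: detected and not called, light grey: tested but not detected). All 11 red points lie right of 0, from 0.38 for Cyp2c65 to 2.57 for Cyp1a1, and the points left of 0, such as Cyp27b1 at -0.59, are all uncalled.

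Promoter sequences were available from RefSeq (GRCm38.p6) for 78 of the 105 members and all 11 called ones, as windows of 250 bases before and 50 after a start site. The promoters of Cyp1a1, Cyp2b10 and Cyp4v3 are shown because they belong to the called members with the largest log2 fold changes and to Cyp4v3, still called with the stomach score, and because they are the called members that hold the letters GCGTG, the invariant part of the site bound by the aryl hydrocarbon receptor. Capitals mark GCGTG, read as CACGC where the match is on the other strand, and also the TATA box letters TATAAA.
Cyp1a1, chr9:57697363-57697662, plus strand: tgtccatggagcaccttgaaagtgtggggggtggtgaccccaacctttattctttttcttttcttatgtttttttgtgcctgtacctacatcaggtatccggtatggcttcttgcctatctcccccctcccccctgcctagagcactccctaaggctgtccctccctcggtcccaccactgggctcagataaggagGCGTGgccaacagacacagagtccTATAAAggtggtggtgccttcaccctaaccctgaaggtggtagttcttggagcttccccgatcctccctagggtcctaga
Cyp2b10, chr7:25897408-25897707, plus strand: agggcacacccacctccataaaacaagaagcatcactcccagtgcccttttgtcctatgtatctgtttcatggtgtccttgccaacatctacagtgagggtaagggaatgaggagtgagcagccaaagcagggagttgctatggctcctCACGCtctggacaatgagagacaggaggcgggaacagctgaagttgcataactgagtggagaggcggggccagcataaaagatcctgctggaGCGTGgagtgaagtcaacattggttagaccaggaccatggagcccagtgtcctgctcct
Cyp4v3, chr8:45333114-45333413, minus strand: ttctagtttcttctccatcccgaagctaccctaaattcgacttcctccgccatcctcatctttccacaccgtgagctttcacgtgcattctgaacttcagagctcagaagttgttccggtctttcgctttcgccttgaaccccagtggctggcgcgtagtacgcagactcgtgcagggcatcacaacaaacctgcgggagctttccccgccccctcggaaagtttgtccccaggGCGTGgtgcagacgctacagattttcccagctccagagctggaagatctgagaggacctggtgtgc

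In Cyp1a1 the GCGTG starts 54 bases and the TATAAA 30 bases before the start site. This start site lies inside the range counted for the gene (57687928 to 57703824), and the upstream end of that range was not searched. GCGTG was present, on either strand, in 20.5% of the 88 member promoters and in 32.4% of all 32841 promoters of the same length. The longer form TNGCGTG, which contains GCGTG, occurred in 5.07% of all promoters and among members only in Cyp2c68. TATAAA was found, on either strand, in 38.6% of member promoters and in 13.6% of all promoters. By gene it occurred in 33 of the 78 members with a promoter and in 7 of the 11 called genes. Counted from the start site, it began at -30 in Cyp1a1 and at -31 in Cyp2d26 and Cyp2e1. In Cyp4a32, Cyp2c66, Cyp2c65 and Cyp3a11 it began at -113, -150, -162 and -234, far from the position of a TATA box. Paired half-sites AGGTCA or AGTTCA, as bound by nuclear receptor dimers, were searched as direct repeats with 1, 3 or 4 bases between them and as everted repeats with 6. They occurred in at most 0.0822% of all promoters and in none of the members. These matches describe the letters of a short window and say nothing of binding.

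Among the xenobiotic-metabolizing members, Cyp1a1 (mm10 chromosome 9, 57687928 to 57703824, plus strand) showed the largest change. Its enzyme oxidises polycyclic aromatic hydrocarbons and indoles, and its transcription is the classic readout of the aryl hydrocarbon receptor. CD1d-KO samples 1 to 4 gave 160.0, 131, 92.9 and 23.0 normalised counts, and WT samples 1 to 4 gave 9.82, 26.2, 15.5 and 17.1, the order used for all values below. CD1d-KO samples 1 to 3 were far above WT, while CD1d-KO 4 fell within the WT range. The log2 fold change was 2.57 ± 0.48 (SE; DESeq2 adjusted p = 1.25e-05). Without the 2 samples with Y-linked counts, which were the 2 highest, it was 1.76 and no longer called (DESeq2 adjusted p = 0.0656).

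Cyp2b10 (chromosome 7, 25897658 to 25926624, plus strand), the standard target gene of CAR, gave 868, 1409, 2227 and 1078 normalised counts with the CD1d-KO genotype, against 491, 660.2, 489.6 and 468 in WT. Every CD1d-KO sample was above every WT sample. The log2 fold change was 1.40 ± 0.32 (DESeq2 adjusted p = 0.000869), and without CD1d-KO 1 and 2 it was 1.65 (DESeq2 adjusted p = 0.00046). Cyp2b10 was the only detected member of its subfamily of 5. Cyp2b9 and Cyp2b23 were at 0, and Cyp2b13 and Cyp2b19 had 1 or 2 counts in the few samples that held any.

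Cyp3a11 (chromosome 5, 145854607 to 145879854, minus strand) is the principal PXR target and the mouse counterpart of the main human drug-oxidising enzyme. It stood at 769, 1235, 1616 and 1115 normalised counts in CD1d-KO, against 648, 793, 542 and 421 in WT, so that CD1d-KO 1 lay just under WT 2. The log2 fold change of 0.98 ± 0.28 (DESeq2 adjusted p = 0.0218) was called in 4 of 8 leave-one-out fits, and was lost without CD1d-KO 2 or 4 or without WT 1 or 3. Without both CD1d-KO 1 and 2 it was 1.18 (DESeq2 adjusted p = 0.0163). The other detected Cyp3a genes were not called. Cyp3a13, the most abundant of them, was 4462 ± 699 in CD1d-KO against 4204 ± 561 in WT (0.09 ± 0.12, DESeq2 adjusted p = 0.845). Cyp3a25 had 1724, 2746, 2769 and 2367 in CD1d-KO, against 1421, 2651, 1419 and 1099 in WT, with WT 2 among the CD1d-KO samples (0.54 ± 0.32, DESeq2 adjusted p = 0.43). Cyp3a25 was called in 1 of 8 leave-one-out fits, the one without WT 2 (DESeq2 adjusted p = 1.13e-05). The largest value in these fits was that without CD1d-KO 2 (DESeq2 adjusted p = 0.764). As a subfamily Cyp3a summed to 8088 ± 1427 in CD1d-KO and 6486 ± 1268 in WT, a ratio of 1.25, and the genotypes overlapped.

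In the Cyp2c subfamily, Cyp2c65 and Cyp2c66 were called. They are adjacent genes on chromosome 19 whose enzymes oxidise arachidonic acid and are typical of the gut rather than the liver. Cyp2c66 (39113898 to 39186756, plus strand) gave 598, 721, 1051 and 769 normalised counts in CD1d-KO, against 337, 556, 491 and 389 in WT, without overlap (log2 fold change 0.82 ± 0.18, DESeq2 adjusted p = 0.000551). Leaving out CD1d-KO 1 and 2 gave 1.04 (DESeq2 adjusted p = 8.49e-06). Its more abundant neighbour Cyp2c65 (39061006 to 39093948, plus strand) had 2938, 3832, 3576 and 3390.1 in CD1d-KO, against 2101, 3133, 2796 and 2509 in WT, with CD1d-KO 1 below WT 2. At a log2 fold change of 0.38 ± 0.12 (DESeq2 adjusted p = 0.0422) it was called in only 2 of 8 leave-one-out fits, and not without CD1d-KO 1 and 2 (DESeq2 adjusted p = 0.0679). The transcripts of both genes share 99.3% or more of their length in stretches of at least 95% identity, so reads may be traded between them and the individual values are uncertain.

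The other Cyp2c members differed less clearly. Cyp2c29 went from 8.33 ± 5.03 in WT to 24.4 ± 17.4 normalised counts in CD1d-KO, with CD1d-KO 3 at 49.9 and the others between 11.5 and 21.0 (1.53 ± 0.59, DESeq2 adjusted p = 0.138). Cyp2c38, at 8, 5, 10 and 10 raw reads with CD1d deleted against 0, 2, 3 and 1 in WT, did not overlap but was below the detection rule (DESeq2 adjusted p = 0.125). Cyp2c55 was 602 ± 182 in CD1d-KO and 477 ± 277 in WT, where WT 2 alone reached 889.7. Cyp2c70, a bile acid hydroxylase of liver, pointed the other way at 14.8 ± 5.45 in CD1d-KO and 19.6 ± 4.53 in WT (-0.41 ± 0.42, DESeq2 adjusted p = 0.738). Summed, Cyp2c counts were 6096 ± 824 in CD1d-KO and 4570 ± 837 in WT, a ratio of 1.33 with overlap. Cyp2c68 (0.31 ± 0.12, DESeq2 adjusted p = 0.117) became called without CD1d-KO 1 and 2 (0.45, DESeq2 adjusted p = 0.00274).

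Cyp2e1 (chromosome 7, 140763819 to 140774990, plus strand), which oxidises ethanol and other small molecules, had the smallest adjusted p of the family. Normalised counts were 346, 400.0, 307 and 255 in CD1d-KO, against 198, 131, 144 and 152 in WT. All 4 CD1d-KO samples exceeded all WT samples, with a ratio of means of 2.09. The log2 fold change was 1.06 ± 0.17 (DESeq2 adjusted p = 2.42e-07), and without CD1d-KO 1 and 2 it was 0.85 (DESeq2 adjusted p = 0.00385). It was called in each of the 8 leave-one-out fits and by edgeR (adjusted p = 0.0103), but not with the stomach score as a covariate, where it was 0.54 (DESeq2 adjusted p = 0.589).

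Cyp2d26 (chromosome 15, 82790107 to 82794245, minus strand), a member of the subfamily that oxidises many amine drugs, had 1827, 2272, 2747 and 2459.7 normalised counts in CD1d-KO, against 1683, 1948, 1797 and 1413 in WT. CD1d-KO 1 lay between the WT samples. The log2 fold change was 0.44 ± 0.13 (DESeq2 adjusted p = 0.0203), and it rose to 0.61 (DESeq2 adjusted p = 0.000134) without CD1d-KO 1 and 2, where Cyp2d22 was called too (0.69, DESeq2 adjusted p = 0.00797). With each sample left out in turn Cyp2d26 was called 3 times of 8, and the call was lost without CD1d-KO 2, 3 or 4 or without WT 1 or 4. Cyp2d10, with at most 8 counts, had a fitted value of 1.34 ± 0.94 (DESeq2 adjusted p = 0.559). Several CYP2 members that are alone in their subfamily were not called. Cyp2s1, abundant in epithelia of the gut and airway, was 3402 ± 180.1 against 3066 ± 191 (0.15 ± 0.07, DESeq2 adjusted p = 0.249). Cyp2w1 gave 0.09 ± 0.15 (DESeq2 adjusted p = 0.861) and Cyp2t4, at 21.5 ± 9.57 against 25.5 ± 9.52, gave -0.24 ± 0.42 (DESeq2 adjusted p = 0.876).

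**Figure D3:**
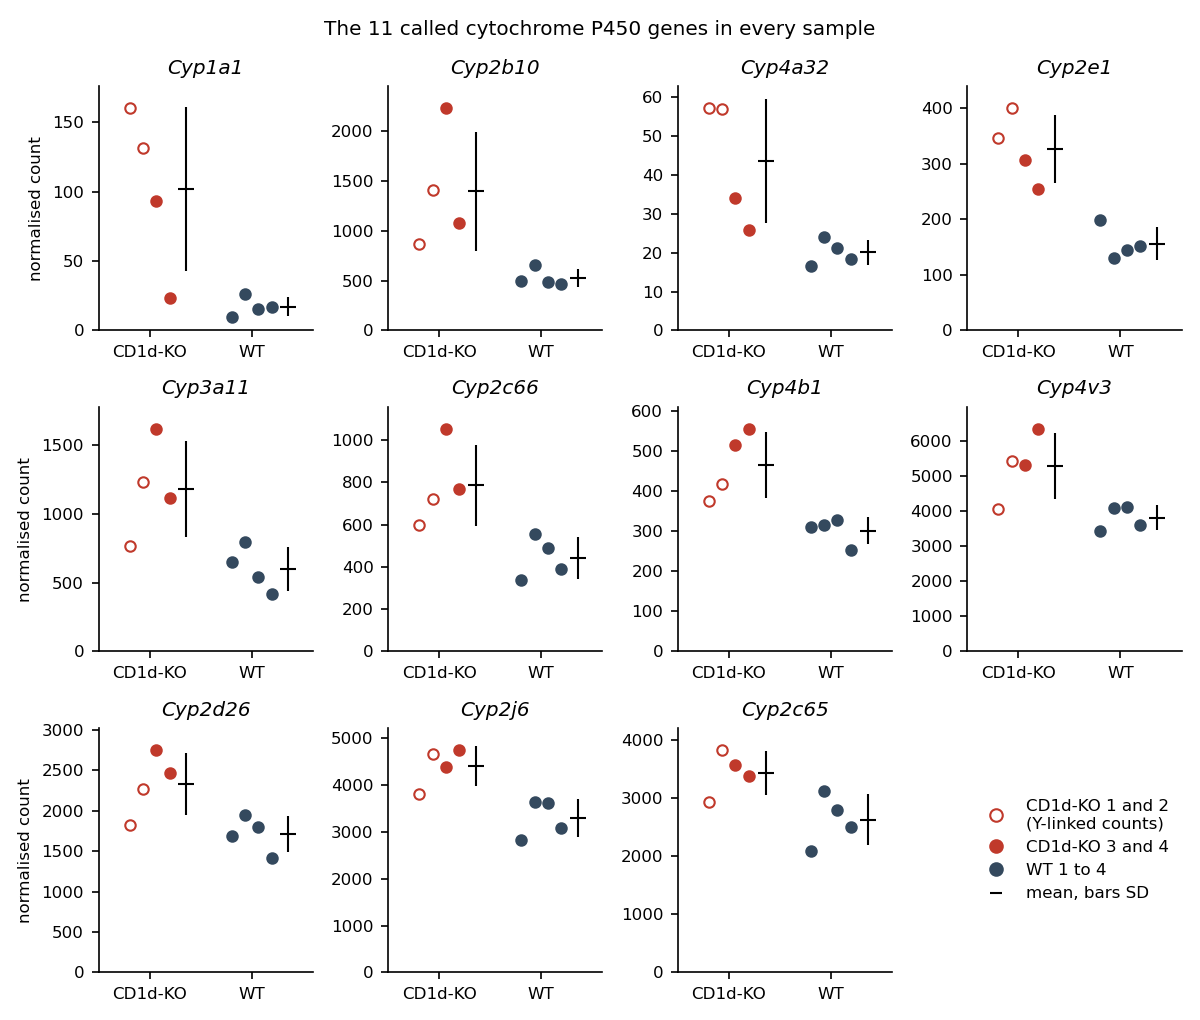
Normalised counts of the 11 called members in every sample, with axes from 0, open red circles for CD1d-KO 1 and 2 (Y-linked counts), filled red for CD1d-KO 3 and 4, blue-grey for WT, and a black bar for mean and SD of each group. Cyp1a1 and Cyp4a32 are highest in CD1d-KO 1 and 2, whereas Cyp2b10, Cyp3a11, Cyp2c66 and Cyp2d26 peak in CD1d-KO 3, and CD1d-KO 1 is the lowest of its group in 8 panels.

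Of the fatty acid oxidising members, Cyp2j6 (chromosome 4, 96516138 to 96553651, minus strand), from a subfamily that makes epoxides and alcohols of polyunsaturated fatty acids, was the most abundant in its subfamily. Its normalised counts of 3815, 4669.8, 4381 and 4746 in CD1d-KO did not overlap with 2837, 3639, 3628 and 3087 in WT (log2 fold change 0.42 ± 0.10, DESeq2 adjusted p = 0.00246). Without CD1d-KO 1 and 2 it was 0.47 (DESeq2 adjusted p = 0.00269). Cyp2j9 pointed the same way without passing the test (0.38 ± 0.16, DESeq2 adjusted p = 0.166), and the Cyp2j sum did not overlap between genotypes (4646 ± 459 in CD1d-KO, 3488 ± 419 in WT).

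Cyp4v3 (chromosome 8, 45305801 to 45333163, minus strand), a fatty acid omega-hydroxylase whose human counterpart is mutated in Bietti crystalline retinal dystrophy, had 4062, 5431, 5309 and 6341 normalised counts in CD1d-KO, against 3432, 4106, 4123 and 3608 in WT. CD1d-KO 1 fell just below WT 2 and WT 3, and the other 3 were well above. Its log2 fold change was 0.47 ± 0.12 (DESeq2 adjusted p = 0.00561), or 0.61 with CD1d-KO 1 and 2 left out (DESeq2 adjusted p = 4.11e-06). This was the only member still called with the stomach marker score as a covariate (0.83, DESeq2 adjusted p = 0.00372), and it was called in all 8 leave-one-out fits but not by edgeR (adjusted p = 0.0773).

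Cyp4b1 (chromosome 4, 115624698 to 115647721, minus strand), which oxidises short and medium-chain fatty acids and some xenobiotics, had 375, 417, 514 and 554 normalised counts in CD1d-KO, against 309, 314, 329 and 253 in WT. The genotypes did not overlap and the order of the CD1d-KO samples differed from that of Cyp1a1, with samples 3 and 4 the highest. DESeq2 gave a log2 fold change of 0.62 ± 0.14 (DESeq2 adjusted p = 0.0011), and it was 0.82 (DESeq2 adjusted p = 8.22e-06) without CD1d-KO 1 and 2. Next to it on the chromosome lies Cyp4a32 (115600938 to 115622366, plus strand), from the PPAR-alpha-responsive omega-hydroxylases. Cyp4a32 was near the lower end of the detected range, at 57.2, 57.1, 34.2 and 25.9 normalised counts in CD1d-KO, against 16.7, 24.1, 21.3 and 18.3 in WT. These did not overlap, with CD1d-KO 4 barely above WT 2 (1.12 ± 0.35, DESeq2 adjusted p = 0.0425). Without CD1d-KO 1 and 2 the value was 0.58 (DESeq2 adjusted p = 0.754), and the call held in 2 of 8 leave-one-out fits. Its transcript shares 95.2% of its length at 95% identity or more with Cyp4a10, which was not called (0.82 ± 0.41, DESeq2 adjusted p = 0.32). Summed, the Cyp4a genes were 99.1 ± 33.6 in CD1d-KO and 51.4 ± 17.0 in WT.

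The Cyp4f subfamily had the largest summed counts. None of its 9 tested members was called by DESeq2 and Cyp4f15 was the only one at an unadjusted p under 0.05 (0.43 ± 0.17, DESeq2 adjusted p = 0.163), although its genotypes did not overlap. Cyp4f14 had 7733, 9366, 11699 and 10580.1 normalised counts in CD1d-KO, against 8180.0, 9087, 9888 and 8436 in WT, with CD1d-KO 1 the lowest of all 8 samples (0.15 ± 0.12, DESeq2 adjusted p = 0.625). Without CD1d-KO 1 and 2 it was called at 0.33 (DESeq2 adjusted p = 0.0301). Cyp4f17 was 92.3 ± 13.8 against 98.4 ± 17.6 (-0.09 ± 0.20, DESeq2 adjusted p = 0.904). The subfamily sum was 17626 ± 1749.8 in CD1d-KO and 16264 ± 1597 in WT, a ratio of 1.08. Cyp2u1, which hydroxylates long-chain fatty acids, gave 0.29 ± 0.18 (DESeq2 adjusted p = 0.483). It is the only tested member on chromosome 3, where it lies 44.3 Mb from Cd1d1.

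The called members did not follow a common order over the CD1d-KO samples. CD1d-KO 1 was the lowest of its group for 8 of the 11 (Cyp2b10, Cyp2c65, Cyp2c66, Cyp2d26, Cyp2j6, Cyp3a11, Cyp4b1 and Cyp4v3) and CD1d-KO 4 for the other 3 (Cyp1a1, Cyp2e1 and Cyp4a32). Within WT, sample 2 was the highest for 8 of the 11. The summed villus enterocyte markers stood at 272768, 339936, 372061 and 386329 normalised counts for CD1d-KO 1 to 4, against 281196, 340202, 339706 and 289049 for WT 1 to 4. CD1d-KO 1 was the lowest of its group here too and WT 2 the highest of WT. CD1d-KO 4, the lowest for Cyp1a1, Cyp2e1 and Cyp4a32, had the highest sum. A score that weighs these genes equally, built like the stomach marker score, was -0.30, 0.04, 0.35 and 0.33 for CD1d-KO 1 to 4. It was -0.23, 0.08, 0.04 and -0.32 for WT 1 to 4. By this score CD1d-KO 1 was the lowest and CD1d-KO 3 the highest of CD1d-KO, and WT 2 the highest of WT. The part of these markers in the result was not tested.

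Members with sterol, steroid and vitamin substrates were not called in the DESeq2 fit of all samples. Cyp51, the lanosterol demethylase of cholesterol synthesis, had 3881 ± 334 normalised counts in CD1d-KO and 3644 ± 355 in WT (0.09 ± 0.09, DESeq2 adjusted p = 0.72). Its pathway moved as little, since of 20 tested sterol synthesis genes only Pmvk, the phosphomevalonate kinase, was called (-0.42, DESeq2 adjusted p = 0.000346), and the list's median was -0.04. Cyp27a1, the mitochondrial sterol hydroxylase of the alternative bile acid pathway, was 692 ± 84.7 against 601 ± 76.4 (0.20 ± 0.12, DESeq2 adjusted p = 0.432). Cyp39a1, an oxysterol hydroxylase on chromosome 17 (43667372 to 43751431), had 997, 1075, 857 and 821 in CD1d-KO, against 784, 737, 728 and 818 in WT. The groups did not overlap, with CD1d-KO 4 next to WT 4, and the test was just missed (0.29 ± 0.10, DESeq2 adjusted p = 0.0807). Cyp39a1 was called in 2 of 8 leave-one-out fits, those without CD1d-KO 3 or without CD1d-KO 4 (lowest DESeq2 adjusted p = 0.0248). Without CD1d-KO 1 and 2 its log2 fold change was 0.13.

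Steroidogenic genes were low. Cyp11a1, which cleaves the cholesterol side chain, had 112 ± 26.8 in CD1d-KO and 88.7 ± 15.0 in WT (0.34 ± 0.22, DESeq2 adjusted p = 0.497), and Cyp17a1 had 41.7 ± 5.93 and 40.8 ± 12.7. Of the vitamin D enzymes, the activating Cyp27b1 was 8.93 ± 3.83 against 13.4 ± 5.12 (-0.59 ± 0.53, DESeq2 adjusted p = 0.692) and the liver-type hydroxylase Cyp2r1 was 33.3 ± 8.15 against 32.1 ± 9.19. The vitamin D target Cyp24a1 and the retinoic acid hydroxylase Cyp26b1 had at most 8 counts in a sample, and the fitted value of Cyp24a1 was 0.99 ± 0.96 (DESeq2 adjusted p = 0.719). Cyp20a1 was 469.7 ± 64.7 against 483 ± 22.3 (-0.04 ± 0.11, DESeq2 adjusted p = 0.941). Cyp4x1 had at most 9 counts and overlaps the antisense Cyp4x1os over 248 exon bases, which counting without strand cannot separate (-0.65 ± 0.81, DESeq2 adjusted p = 0.809).

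By subfamily, the genotypes separated fully in 5 summed subfamilies of the 23 with a detected member. All were higher in CD1d-KO, namely Cyp2b (ratio 2.65), Cyp2e (2.09), Cyp4b (1.55), Cyp2j (1.33) and Cyp39a (1.22). Cyp2b, Cyp2e, Cyp4b and Cyp39a had 1 detected member each, so their sums restate the values of single genes. Of all genes tested, 4.09% separated upwards and 5.52% downwards. Subfamilies that held a called member but overlapped between genotypes were Cyp1a (5.85), Cyp4a (1.93), Cyp4v (1.38), Cyp2d (1.36), Cyp2c (1.33) and Cyp3a (1.25). Called genes were dispersed over the gene clusters of the family. The Cyp2c cluster on chromosome 19 (15 members from 39007019 to 40187286) held 2, the Cyp4a, Cyp4b and Cyp4x cluster on chromosome 4 (12 members from 115106323 to 115647721) held 2, and the Cyp2d, Cyp2j and Cyp3a clusters and the chromosome 7 run of Cyp2a, Cyp2b, Cyp2f, Cyp2g, Cyp2s and Cyp2t genes held 1 each. The Cyp4f cluster on chromosome 17 (9 members from 32452723 to 32965716) held none.

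The electron donors, haem enzymes and receptors on which the family depends were examined as lists. Of 13 tested electron donor and haem genes only Pgrmc2, a haem-binding partner, was called (0.19, DESeq2 adjusted p = 0.0422). Por, the reductase that serves all microsomal members, gave 0.18 (DESeq2 adjusted p = 0.359). None of 19 tested receptors and sensors was called by DESeq2, and 1 was higher and 2 lower at an unadjusted p under 0.05. Nr1i2 was at 0.06 (DESeq2 adjusted p = 0.802), Nr1i3 at 0.12 (DESeq2 adjusted p = 0.687) and Ahr at 0.06 (DESeq2 adjusted p = 0.893). The receptor list's median was -0.01.

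Target genes of the receptors outside the family were examined next. Of 24 tested targets of PXR and CAR, 5 rose and 1 fell, and 21 had a positive log2 fold change (median 0.30), where 1.65% of all genes tested were called higher, 2.38% lower and 50.3% had a positive value. Over all the partner, receptor and target lists 8 genes were called, against 5 by edgeR and 3 with the stomach score. In the main DESeq2 fit the 5 PXR and CAR targets that rose were Aldh1a1, Aldh1a7, Abcb1a, Fmo5 and Gsta1. The retinaldehyde dehydrogenase Aldh1a1 was at 1.14 (DESeq2 adjusted p = 0.0177) and its relative Aldh1a7 at 0.88 (DESeq2 adjusted p = 0.00105). The efflux pump Abcb1a was at 0.64 (DESeq2 adjusted p = 1.17e-05) and the monooxygenase Fmo5 at 0.61 (DESeq2 adjusted p = 6.74e-05). The glutathione transferase Gsta1 was at 0.49 (DESeq2 adjusted p = 0.0226). The exporter Abcc3 fell by 0.39 on the log2 scale (DESeq2 adjusted p = 5.72e-06). Aldh1a1 was highest in CD1d-KO 3 at 8113 normalised counts, as Cyp2b10 and Cyp3a11 were. The villus enterocyte score was also highest in CD1d-KO 3 (0.35, with CD1d-KO 4 at 0.33), while the summed counts of those markers were highest in CD1d-KO 4. The cause of the peak in CD1d-KO 3 was not tested. Of 10 tested targets of the aryl hydrocarbon receptor only Gsta1, shared with the other list, was called. Positive values were found for 5 of the 10, and the median was 0.02. Nqo1 was at -0.03 (DESeq2 adjusted p = 0.958), Tiparp at -0.05 and Nfe2l2 at 0.14, none of them called. Ahrr (-0.37) and Ugt1a6b (0.97) were not called either, and had at most 16.7 and 5.86 normalised counts in a sample. Aldh3a1 had counts only in WT 3 and WT 4, the samples with the highest stomach marker scores (3.24 and 2.32), and a link between them was not tested. These lists were chosen with earlier results of these data known.

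**Figure D4:**
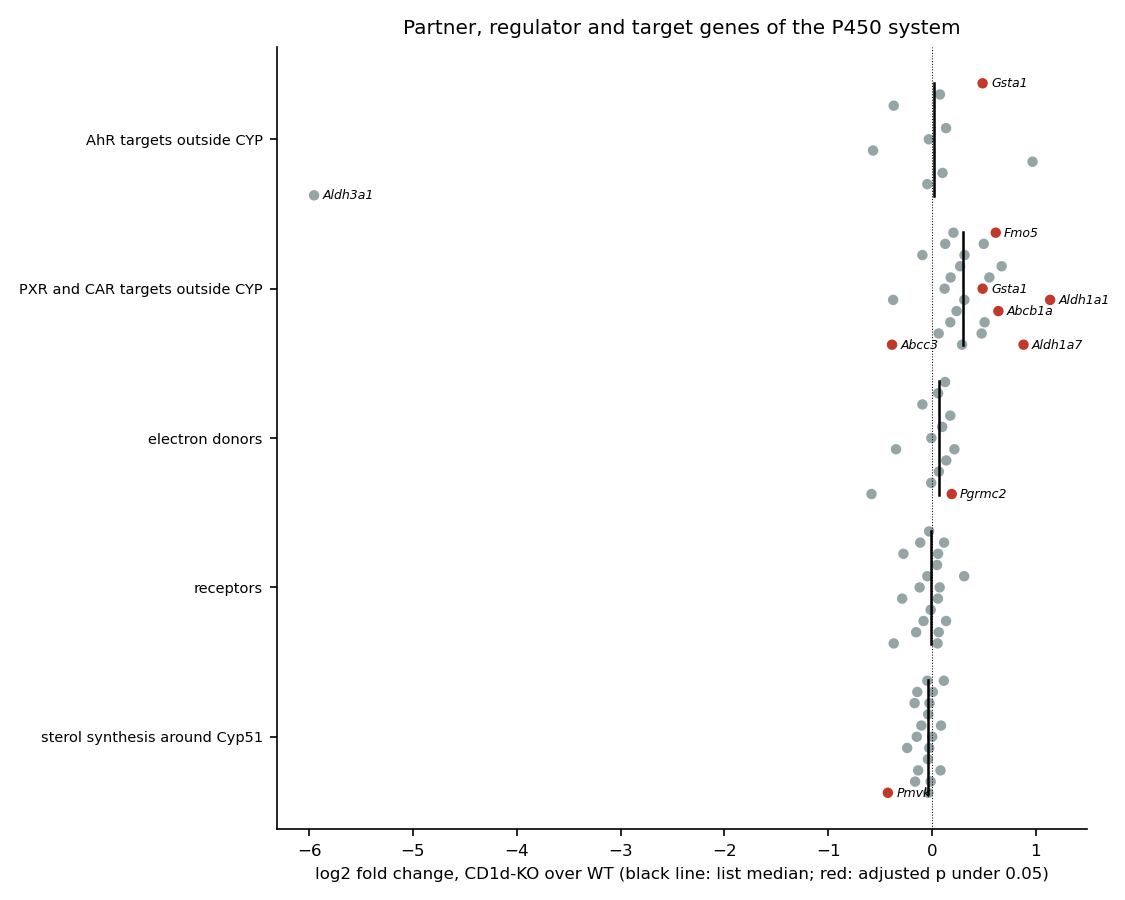
Log2 fold change of CD1d-KO over WT for every tested gene of the partner, regulator and target lists, 1 point per gene, red where the DESeq2 adjusted p was under 0.05, with a black line at each list's median. The PXR and CAR targets lie mostly right of 0 (median 0.30), the receptors and the sterol synthesis genes centre on 0, and Aldh3a1 at the far left had counts in WT 3 and WT 4 only.

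The number of called members depended on the samples and the test. Without the 2 samples with Y-linked counts 11 members were called, all higher, where 1.22% of all genes tested were called higher. Of these, 8 were shared with the full comparison, Cyp1a1, Cyp2c65 and Cyp4a32 were lost, and Cyp2c68, Cyp2d22 and Cyp4f14 were gained. That fit compares only CD1d-KO 3 and 4 with WT. Their villus enterocyte scores (0.35 and 0.33) were both above every WT sample (at most 0.08). In it the parts of genotype and of these markers cannot be told apart. The edgeR quasi-likelihood test called 4 members, Cyp1a1, Cyp2b10, Cyp2e1 and Cyp4b1, where it called 0.589% of all genes higher. With the stomach marker score as a covariate 1 member was called, Cyp4v3. In that fit Cyp1a1 was at 0.16 (DESeq2 adjusted p = 0.98) and Cyp2b10 at 0.93 (DESeq2 adjusted p = 0.717), while Cyp2j6 (0.63, DESeq2 adjusted p = 0.0532) and Cyp4b1 (0.91, DESeq2 adjusted p = 0.0651) exceeded their value in the plain fit. The score itself separated the genotypes, at -2.69 to 0.293 in CD1d-KO and 0.792 to 3.24 in WT, so its part and that of genotype cannot be told apart. Cyp1a1, Cyp2b10, Cyp2c66, Cyp2e1, Cyp2j6, Cyp4b1 and Cyp4v3 were called in all 8 leave-one-out fits.

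**Figure D5:**
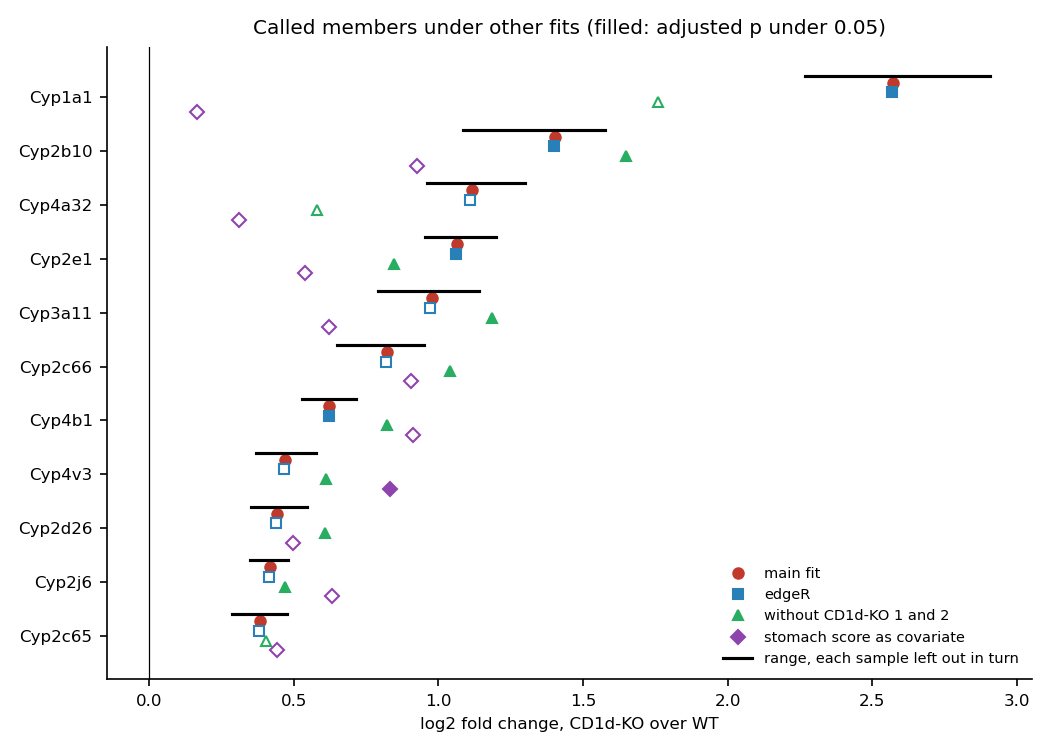
Log2 fold change of the 11 called members in the DESeq2 fit of all samples (circles), in edgeR (squares), without CD1d-KO 1 and 2 (triangles) and after adding the stomach score to the model (diamonds), filled where the adjusted p was under 0.05, and black lines for the range when each sample is left out. All symbols are right of 0, and Cyp1a1 moves most, from 2.57 to 1.76 and 0.16, whereas Cyp4v3 and Cyp4b1 move to higher values.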

How the data were processed

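Bulk mRNA-seq of 8 samples of sorted IECs (4 CD1d-KO, 4 WT) was analysed. Genotype and replicate number came from the sample labels, which give neither sex nor experiment per sample. The authors deposited raw counts of read pairs per gene. Per the file headers these counts were made by featureCounts 1.6.4 over exons with primary alignments and without strand, on an mm10 annotation, whereas the study's methods name HISAT2 and GRCm39. Near-identical genes may therefore trade counts, and coordinates are those of the table (mm10). The table had 0 unused sample columns.

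All genes were fitted in DESeq2 1.42.0 (R 4.3.3) with genotype as the only term, its default size factors, Cook's filter and independent filtering at a mean of 2.41. Benjamini-Hochberg adjustment ran over every gene tested at a threshold of 0.05, and fold changes carry SE. Normalised counts are counts divided by size factors. TPM used the table's exon lengths. Sums over subfamilies and lists had no test. Alternatives were edgeR 4.0.16, TMM factors, size factors outside the 50 most abundant genes, a filter of 10 counts in at least 4 samples, no independent filtering or Cook's rule, a replicate block, each sample left out, the samples with Y-linked counts left out, and the stomach marker score, scaled to unit SD, as covariate. The limit of 3 counts beside a count of 0 covers counting error only.

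Transcript similarity used GENCODE transcripts (hits of at least 100 bases and 95% identity). Promoters came from RefSeq. The script was tested on simulated data.

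Named members were those called, the most abundant of each subfamily with a detected member, a fixed set of known intestinal role, and the 5 most positive and 5 most negative. Others were named after their values were seen. The members and all lists were chosen with earlier results of these data known.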

Additional observations from a re-analysis of the deposited data

Results flagged for a closer look

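A sample stood far from the other 3 of its group in 3 of 70 group values checked by Dixon's test, which flags about 1 in 20 groups by chance. Cyp27a1 was at 817 normalised counts in CD1d-KO 2, with the others between 631 and 661. Cyp2b10 was at 660.2 in WT 2, with the others between 468 and 491, and every CD1d-KO sample was still higher. Cyp4x1 was at 8.73 in WT 3, with the others between 3.67 and 4.19, all at counts under 10.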

How the results depend on the processing

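The count of called genes was 622 over all genes, 228 by edgeR, 372 without the samples with Y-linked counts, 105 with the stomach score and 323 to 646 with each sample left out (lowest without CD1d-KO 2, and 406 and 385 without WT 1 and WT 2). Of members 11 were called, 4 by edgeR, 1 with the stomach score and 7 to 12 with a sample left out (7 without CD1d-KO 2 or WT 1). Of partner and target genes 8 were called, 5 by edgeR, 3 with the stomach score and 5 to 9 with a sample left out (5 without WT 1, 3 or 4). Counting 1 read in any sample as detection gives 81 members in place of 43.

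The replicate block called 10 members, 12 partner genes and 569 genes. Same-numbered samples correlated at 0.205, 0.00232, 0.194 and -0.0288 in their deviations from the group means, so the numbers were not taken to pair them.

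Of 550 alternative values over 35 named members 482 kept direction and side of the threshold, 44 lost a call, 4 gained one and 20 changed sign, all of the last in members not called. With a sample left out the ranges that cross 0 were -0.109 to 0.21 for Cyp17a1, -0.113 to 0.0466 for Cyp20a1, -0.465 to 0.901 for Cyp26b1, -0.107 to 0.26 for Cyp2r1, -0.506 to 0.0484 for Cyp2t4, -0.0205 to 0.167 for Cyp2w1 and -0.164 to 0.036 for Cyp4f17. Without the samples with Y-linked counts Cyp20a1 was 0.0754, Cyp24a1 -0.142, Cyp26b1 -0.512 and Cyp2r1 -0.121. With the stomach score Cyp2c29 was -0.0461, Cyp2w1 -0.0404 and Cyp51 -0.0933. The cause of these changes was not tested. Members under 10 counts per sample cannot show differences of ordinary size at this depth.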
